A study of Homo sapiens with 27 samples.

Results

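The 10 genes of fatty acid synthesis and desaturation examined here were SREBF1, ACLY, ACSS2, ACACA, FASN, ELOVL6, SCD, FADS1, FADS2 and GPAM. They were taken by gene symbol from the 55882 symbols counted in every library, and all 10 passed the filter on low counts in every comparison. mRNA-Seq was performed on poly(A) RNA of U2OS, a human osteosarcoma cell line, in 27 libraries. The control line, titled WT in the labels, carried an empty pLKO.1 lentiviral vector as their protocol states, and the MMP2sh1 and MMP2sh2 lines carried the same vector with one of a pair of shRNAs against MMP-2, short hairpin RNAs that direct the degradation of the MMP2 mRNA. The methods of the study describe stable transduction followed by puromycin selection, which all 3 lines therefore share, and whether a line was a pool or 1 clone is not given in the sources used here. Cells were plated subconfluent (day −2), reached confluence at day 0 and were overconfluent at day +2, in serum-containing medium, and each line was sampled at each day in 3 replicates that the study calls independent. MMP2sh1 and MMP2sh2 were compared with the same control libraries, so the comparisons of the 2 lines with control are not independent.

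Fatty acids are made in the cytosol from acetyl-CoA. ACLY releases acetyl-CoA from citrate and ACSS2 makes it from acetate, ACACA (acetyl-CoA carboxylase) converts it to malonyl-CoA, and FASN joins these units into palmitate. ELOVL6 then lengthens palmitate, SCD introduces the double bond of palmitoleate and oleate, FADS1 and FADS2 desaturate polyunsaturated fatty acids, and GPAM attaches the first acyl chain to glycerol 3-phosphate on the way to phospholipids and triglycerides. SREBF1 encodes SREBP-1, a membrane-bound transcription factor that is retained in the endoplasmic reticulum by SCAP and INSIG proteins and is released by proteolysis to activate genes of this pathway. The pathway is known for its high activity in liver and adipose tissue, and dividing tumor cells also use it to make membrane lipids.

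Between 33580129 and 59374327 reads were counted on genes per library, and levels are given as CPM, counts put on a common scale by TMM in edgeR. MMP2, the gene targeted by the shRNAs, was at 496, 479.9 and 492 CPM in the control libraries of day +2, at 97.3, 93.7 and 100.01 in MMP2sh1 and at 278, 291 and 266 in MMP2sh2. In every shRNA group at every day the MMP2 levels lay below those of the control libraries of the same day, and the log2 fold changes were −2.53, −2.47 and −2.34 at the 3 days in MMP2sh1 and −0.70, −1.06 and −0.82 in MMP2sh2. Of 8 osteoblast-lineage markers, RUNX2, COL1A1, SPP1 and ALPL averaged at least 1 CPM in at least 1 group and IBSP was at 0 in all 27 libraries and SP7 in 15. Of 6 adipocyte markers only PPARG averaged at least 1 CPM in any group, and ADIPOQ was at 0 in all 27 libraries. Of 4 hepatocyte markers only SERPINA1 did so, while ALB did not exceed 0.102 CPM.

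Levels of different genes were compared per kilobase, first with the exonic bases of the canonical transcript as the length. In control cells at day −2, FASN was at 114 ± 7.29 CPM per kilobase (SD, n = 3), ACLY at 108 ± 3.01, FADS2 at 104 ± 3.33 and SCD at 87.9 ± 3.00. FADS1 followed at 53.2 ± 1.63 and SREBF1 at 38.2 ± 3.54, ahead of ACACA at 17.1 ± 0.0927, ACSS2 at 7.59 ± 0.258, ELOVL6 at 6.20 ± 0.307 and GPAM at 2.96 ± 0.455. In this order FASN and ACLY, and ACLY and FADS2, differed by less than the sum of their SDs. At day +2 in control the order was FADS2 (81.2 ± 1.36 CPM per kilobase), ACLY (58.5 ± 1.75), FASN (51.6 ± 0.821), SREBF1 (46.2 ± 1.38), FADS1 (44.8 ± 1.28), SCD (36.5 ± 2.07), ACACA (10.3 ± 0.465), ELOVL6 (9.94 ± 0.122), ACSS2 (8.64 ± 0.437) and GPAM (2.60 ± 0.364). Here SREBF1 and FADS1, and ACACA and ELOVL6, differed by less than the sum of their SDs. The order depends on the length used, since reads were counted over all exons of a gene. With all exonic bases as the length, an alternative chosen after seeing the data, FADS2 moved from 104 ± 3.33 to 30.5 ± 0.97 CPM per kilobase at day −2 and from 81.2 ± 1.36 to 23.8 ± 0.398 at day +2, and FADS1 to 22.7 ± 0.697 and 19.1 ± 0.547. The highest levels at day −2 were then FASN at 103 ± 6.62, ACLY at 89.4 ± 2.48 and SCD at 87.9 ± 3.00, and at day +2 ACLY at 48.2 ± 1.45, FASN at 46.8 ± 0.746 and SCD at 36.5 ± 2.07, and ACLY and SCD at day −2 and ACLY and FASN at day +2 differed by less than the sum of their SDs. GPAM was lowest with both lengths at both days.

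Of the 10 genes, 9 (all but FASN) had an entry in the RefSeq promoter table (GRCh38.p14), with 14 windows in all, of which the 250 bases before each annotated start were searched. The promoters of ACLY and SCD, which fell during expansion in every line, and of ELOVL6, which rose in every line, are shown because these genes moved in opposite directions. The ACLY window is chr17:41919023-41919272 on the minus strand, the SCD window is chr10:100346983-100347232 on the plus strand and the ELOVL6 window is chr4:110198616-110198865 on the minus strand. Each is written 5′ to 3′ on the strand of the gene, and capitals mark the CCAAT box (CCAAT on either strand).
ACLY: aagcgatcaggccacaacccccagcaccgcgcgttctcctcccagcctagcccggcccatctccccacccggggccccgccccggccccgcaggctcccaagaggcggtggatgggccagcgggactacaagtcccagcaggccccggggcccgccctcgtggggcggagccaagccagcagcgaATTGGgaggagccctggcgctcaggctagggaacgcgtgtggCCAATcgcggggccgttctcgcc
SCD: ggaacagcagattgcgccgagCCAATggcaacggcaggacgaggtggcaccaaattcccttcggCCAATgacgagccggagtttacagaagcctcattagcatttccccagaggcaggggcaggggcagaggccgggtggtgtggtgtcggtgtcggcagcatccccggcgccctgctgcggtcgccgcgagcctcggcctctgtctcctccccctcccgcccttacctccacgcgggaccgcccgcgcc
ELOVL6: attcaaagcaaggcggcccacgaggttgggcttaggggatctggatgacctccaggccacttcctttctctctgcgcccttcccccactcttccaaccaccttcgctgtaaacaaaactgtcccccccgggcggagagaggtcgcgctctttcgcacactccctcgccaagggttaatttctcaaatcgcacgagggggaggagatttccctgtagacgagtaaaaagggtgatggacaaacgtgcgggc

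The ACLY and SCD windows each held 2 CCAAT boxes and the ELOVL6 window held none. ACACA, which fell, also held CCAAT, and SREBF1, which rose, held none. FADS1 and FADS2, which fell after confluence in every line, held none. ACSS2, which was not called lower from day −2 to day +2 in any line, held 1. A link between these letters and the changes was not tested. Over all windows of the 10 genes, 6 of 14 held CCAAT, in ACLY, ACSS2, ACACA and SCD, and 32% of the 35116 windows in the table did. The GC box (GGGCGG on either strand), not marked above, was in 12 of 14 windows, at least 1 for each of the 9 genes, against 42.6% of all windows. The sterol regulatory element in the form TCACNCCAC and the E-box CACGTG were in 0 of 14 windows, and in 0.883% and 6.34% of all windows. The windows of a gene can overlap. The 2 ACLY windows share 179 bases and hold the same 2 CCAAT boxes, which are counted in both, and the 2 FADS2 windows share 49 bases. A match describes letters and not a site of binding, and no match says only that these letters were not in these windows.

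**Figure D1:**
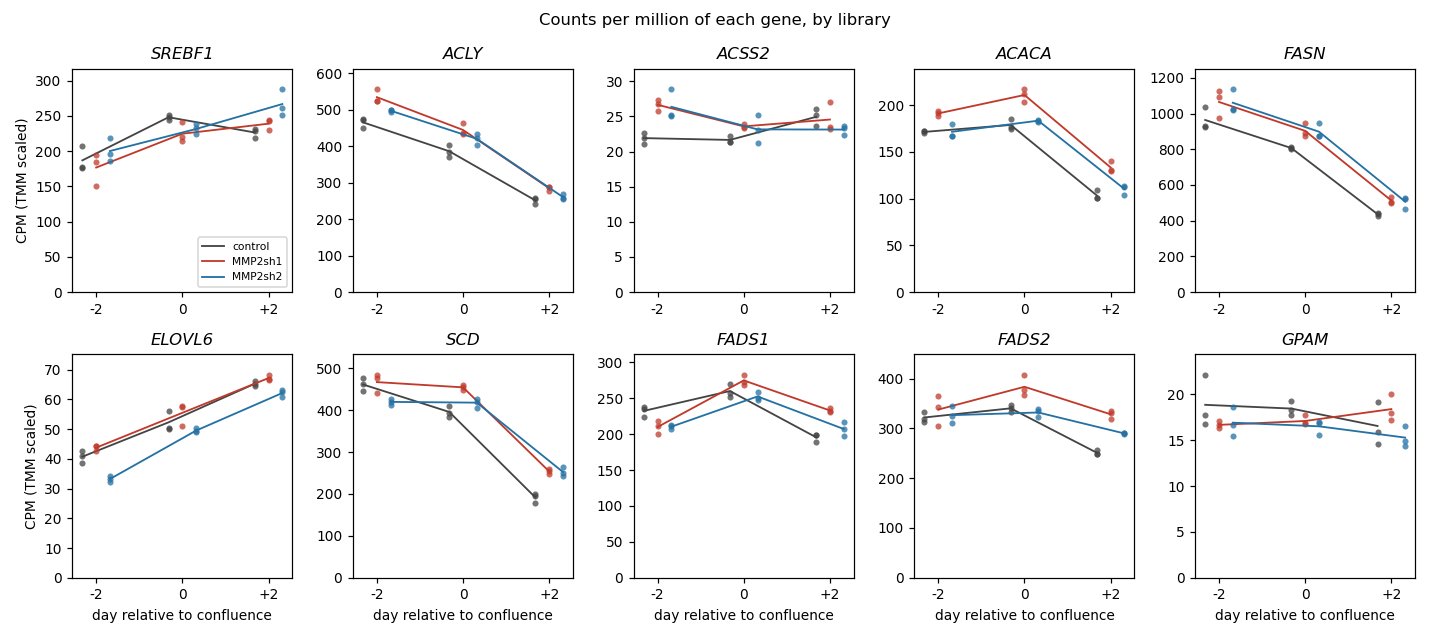
CPM (y axis, TMM scaled, from 0) of each of the 10 genes against the day relative to confluence (x axis). Points are libraries (3 per group) and lines join group means, in dark grey for control, red for MMP2sh1 and blue for MMP2sh2. FASN, SCD, ACLY and ACACA ended lower and ELOVL6 and SREBF1 higher in every line.

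The first question was how the genes changed as each line grew from subconfluent to overconfluent. From day −2 to day +2, ACLY, ACACA, FASN and SCD fell and ELOVL6 and SREBF1 rose in all 3 lines. The share of all genes that changed alike in all 3 lines was not counted. In control, 6 of the 10 genes were called lower and 3 higher (a gene was called when its adjusted p was under 0.05 in the quasi-likelihood test of edgeR, adjusted by Benjamini-Hochberg over all genes tested, and SE is the standard error), where 28.6% of all genes tested were called lower and 28.1% higher. In MMP2sh1, 4 were lower and 3 higher, against 27.7% and 27.3% of all genes. In MMP2sh2, 5 were lower and 2 higher, against 27.1% and 27.7%. The median log2 fold change of the 10 genes was −0.30 in control, −0.08 in MMP2sh1 and −0.17 in MMP2sh2, beside 0.03, 0.04 and 0.05 over all genes tested. Scaling to library totals without TMM moved the median of all genes to 0.13, 0.14 and 0.19 in the same order, and the calls among the 10 genes to 6 lower and 3 higher, 4 and 4, and 4 and 2.

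The fall took place mostly after confluence. From day 0 to day +2, 7 genes were lower and 2 higher in control (20.1% and 21.3% of all genes), 6 and 1 in MMP2sh1 (23.0% and 23.1%), and 6 and 2 in MMP2sh2 (23.0% and 22.5%). ACLY, ACACA, FASN, SCD, FADS1 and FADS2 were lower at this step in all 3 lines, and ELOVL6 was higher in all 3. The share of all genes called in the same direction in all 3 lines was not counted, at this or the other steps. The medians of the 10 genes at this step were −0.40, −0.22 and −0.22, beside 0.01, 0.01 and 0.01 over all genes.

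Before confluence the directions were mixed. From day −2 to day 0, 3 genes were lower and 3 higher in control (19.1% and 16.4% of all genes), 2 and 5 in MMP2sh1 (17.7% and 15.0%), and 2 and 3 in MMP2sh2 (16.4% and 13.9%). ACLY and FASN were lower and SREBF1, ELOVL6 and FADS1 higher in all 3 lines, with medians of 0.03, 0.09 and 0.00 beside 0.02, 0.02 and 0.02 over all genes. With library totals the calls were 3 lower and 5 higher in control and 2 lower and 4 higher in MMP2sh2. In bulk RNA, a change in the share of cells that express a gene and a change in the amount of its mRNA per cell cannot be told apart.

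**Figure D2:**
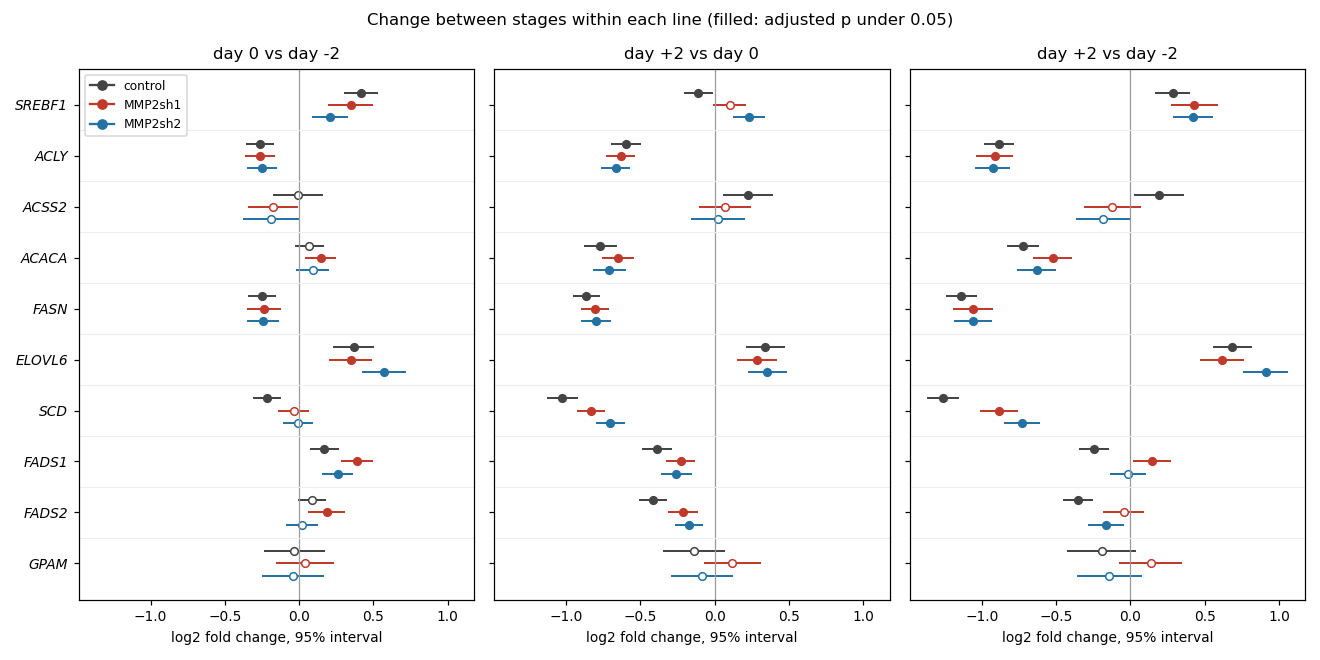
Log2 fold change (x axis) of each gene (y axis) between stages within a line, in 3 panels for day 0 against day −2, day +2 against day 0 and day +2 against day −2. Bars are 95% intervals and filled points have an adjusted p under 0.05. FASN, SCD, ACLY and ACACA lie left of 0 in every line in the panels of day +2, and ELOVL6 lies right of 0 in all 3 panels.

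SREBF1, the gene of the regulator SREBP-1 (chr17:17713713-17740316 on the minus strand of GRCh37, the build of the counts), rose over the expansion. SREBF1 in control cells was at 176, 178 and 207 CPM at day −2, at 252, 245 and 248 at day 0 and at 219, 232 and 228 at day +2. SREBF1 in MMP2sh1 cells was at 151, 185 and 195 CPM at day −2, at 219.5, 214 and 241 at day 0 and at 245, 243 and 229.6 at day +2. SREBF1 in MMP2sh2 cells was at 196, 186 and 218 CPM at day −2, at 239, 224 and 232 at day 0 and at 262, 289 and 251 at day +2. In each line all 3 libraries of day +2 lay above all 3 of day −2. Such separation of days, here and for the genes below, describes the same values that were tested. The share of all genes separated in this way was not counted. The log2 fold change from day −2 to day +2 was 0.28 (SE 0.05, adjusted p = 7.1e-05) in control, 0.43 (SE 0.07, adjusted p = 2.8e-05) in MMP2sh1 and 0.42 (SE 0.06, adjusted p = 1.2e-06) in MMP2sh2. The step after confluence was called in opposite directions in MMP2sh2 and control. MMP2sh2 rose by 0.23 (adjusted p = 3.9e-04), MMP2sh1 had a value of 0.10 (adjusted p = 0.108) and control was at −0.11 (adjusted p = 0.0477), a call that was lost with any 1 of its 6 libraries left out (−0.12 to −0.08, adjusted p up to 0.152), with all 27 libraries in 1 fit, with library totals and with no filter. The MMP2sh1 value was called without MMP2sh1 replicate 3 of day 0 (0.15, adjusted p = 0.0289) or of day +2 (0.13, adjusted p = 0.0497), and whether this step differed between lines was not tested. The rise of MMP2sh2 before confluence (0.21, adjusted p = 0.00559) lost its call without MMP2sh2 replicate 2 of day −2, at a value of 0.15. SREBF1 shares 6.75% of its exonic bases with RAI1, and reads on bases of more than 1 gene were left out of both by the union counting.

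Of the enzymes that supply acetyl-CoA, ACLY was called lower at day +2 than at day −2 in every line and ACSS2 in none. ACLY (chr17:40023170-40086795 on the minus strand) was in control at 473, 451 and 473 CPM at day −2, at 371, 384 and 404 at day 0 and at 243, 257 and 254 at day +2. ACLY in MMP2sh1 cells was at 557, 523 and 523 CPM at day −2, at 463, 437 and 434 at day 0 and at 277, 289 and 288 at day +2. ACLY in MMP2sh2 cells was at 499, 493 and 500.4 CPM at day −2, at 405, 433 and 423 at day 0 and at 256, 257 and 269 at day +2. In all 3 lines the libraries of the 3 days formed separate ranges that descended from day −2 to day +2. Over both steps the log2 fold change of ACLY was −0.88 (SE 0.05, adjusted p = 3.6e-15) in control, −0.91 (SE 0.06, adjusted p = 2.3e-12) in MMP2sh1 and −0.93 (SE 0.05, adjusted p = 1.5e-15) in MMP2sh2.

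ACSS2 (chr20:33459949-33515765 on the plus strand) makes acetyl-CoA from acetate, and its levels moved within a narrow range. ACSS2 in control cells was at 22.0, 21.1 and 22.6 CPM at day −2, at 21.4, 22.2 and 21.4 at day 0 and at 26.0, 23.6 and 25.2 at day +2. ACSS2 in MMP2sh1 cells was at 25.8, 27.4 and 26.8 CPM at day −2, at 23.5, 23.3 and 24.0 at day 0 and at 26.98, 23.2 and 23.5 at day +2. ACSS2 in MMP2sh2 cells was at 25.0, 25.1 and 28.9 CPM at day −2, at 21.2, 25.2 and 23.1 at day 0 and at 23.4, 23.7 and 22.3 at day +2. The libraries of day +2 lay above those of day −2 in control, overlapped with them in MMP2sh1 and lay below them in MMP2sh2. The log2 fold change from day −2 to day +2 was 0.19 (SE 0.08, adjusted p = 0.0401) in control, and in MMP2sh1 and MMP2sh2 it was −0.12 (adjusted p = 0.259) and −0.18 (adjusted p = 0.0840), the latter called without MMP2sh2 replicate 1 of day −2 (−0.24, adjusted p = 0.0457) and with all 27 libraries in 1 fit. The control call was lost with DESeq2, with no filter on low counts, and without control replicate 1 or 2 of day −2 or replicate 1 or 3 of day +2 (0.16 to 0.23, adjusted p up to 0.136 with 1 library left out). The control rise from day 0 to day +2 (0.22, adjusted p = 0.0241) was lost without control replicate 1 or 3 of day 0 or of day +2 (0.19 to 0.27, adjusted p up to 0.0923).

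The chain-building enzymes ACACA and FASN both fell after confluence. ACACA (chr17:35441927-35766927 on the minus strand) was in control at 170.4, 172 and 172 CPM at day −2, at 175, 185 and 177 at day 0 and at 109, 101 and 101 at day +2. ACACA in MMP2sh1 cells was at 188, 191 and 194 CPM at day −2, at 217, 203 and 212 at day 0 and at 131, 139.9 and 129 at day +2. ACACA in MMP2sh2 cells was at 167, 180.1 and 167 CPM at day −2, at 184, 184 and 182 at day 0 and at 113, 104 and 114 at day +2. In each line the levels of days −2 and 0 lay close together and those of day +2 lay far below both. Between days −2 and +2 the log2 fold change was −0.72 (SE 0.05, adjusted p = 1.1e-12) in control, −0.52 (SE 0.06, adjusted p = 8.7e-08) in MMP2sh1 and −0.63 (SE 0.06, adjusted p = 2.5e-10) in MMP2sh2. Before confluence ACACA rose in MMP2sh1 by 0.14 (adjusted p = 0.0239), a call lost without MMP2sh1 replicate 1 or 3 of day 0 (0.12 to 0.17, adjusted p up to 0.153), and its value was 0.07 in control and 0.09 in MMP2sh2 (adjusted p = 0.252 and 0.182).

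FASN (chr17:80036214-80056170 on the minus strand), the fatty acid synthase, fell at each step in each line. FASN in control cells was at 925, 932 and 1035 CPM at day −2, at 806, 812 and 802 at day 0 and at 442, 438 and 429 at day +2. FASN in MMP2sh1 cells was at 975, 1096 and 1125 CPM at day −2, at 872, 893 and 945 at day 0 and at 506, 533 and 499 at day +2. FASN in MMP2sh2 cells was at 1019, 1026 and 1138 CPM at day −2, at 873, 948 and 875 at day 0 and at 524, 529 and 468 at day +2. In every line the levels of the 3 days did not overlap, with those of day +2 the lowest by a wide margin. How many of all genes were separated by day was not counted. The log2 fold change from day −2 to day +2 was −1.14 (SE 0.05, adjusted p = 5.3e-17) in control, −1.06 (SE 0.06, adjusted p = 6.7e-13) in MMP2sh1 and −1.06 (SE 0.06, adjusted p = 2.9e-16) in MMP2sh2. The step after confluence alone had log2 fold changes of −0.86, −0.81 and −0.80 in the same line order.

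ELOVL6 (chr4:110967002-111120355 on the minus strand), which lengthens palmitate to stearate, moved against the synthesis genes and rose at each step in each line. ELOVL6 in control cells was at 40.9, 38.6 and 42.7 CPM at day −2, at 56.3, 50.1 and 50.6 at day 0 and at 66.2, 65.1 and 64.6 at day +2. ELOVL6 in MMP2sh1 cells was at 42.7, 44.4 and 44.3 CPM at day −2, at 57.7, 57.6 and 51.2 at day 0 and at 68.4, 66.4 and 66.8 at day +2. ELOVL6 in MMP2sh2 cells was at 32.1, 34.2 and 33.4 CPM at day −2, at 49.3, 49.0 and 50.4 at day 0 and at 62.4, 61.0 and 63.1 at day +2. The 3 days did not overlap in any line. Over the whole expansion the log2 fold change was 0.69 (SE 0.06, adjusted p = 1.6e-10) in control, 0.61 (SE 0.07, adjusted p = 5.8e-08) in MMP2sh1 and 0.91 (SE 0.07, adjusted p = 1.8e-12) in MMP2sh2.

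Of the desaturases, SCD (chr10:102106990-102124583 on the plus strand), which makes monounsaturated fatty acids, had the largest fall of the 10 genes in control. SCD in control cells was at 462, 445 and 476 CPM at day −2, at 392, 410.2 and 384 at day 0 and at 199, 196 and 179 at day +2. SCD in MMP2sh1 cells was at 439.6, 485 and 476 CPM at day −2, at 455, 459 and 449 at day 0 and at 248, 259 and 254 at day +2. SCD in MMP2sh2 cells was at 413, 426 and 419.7 CPM at day −2, at 420.2, 406 and 427 at day 0 and at 249, 244 and 264 at day +2. The levels of day −2 and day 0 were separate in control and overlapped in both shRNA lines, and those of day +2 were the lowest in all 3 lines. Over both steps its log2 fold change was −1.26 (SE 0.05, adjusted p = 9.2e-18) in control, −0.88 (SE 0.06, adjusted p = 7.2e-12) in MMP2sh1 and −0.73 (SE 0.06, adjusted p = 8.8e-13) in MMP2sh2. Before confluence SCD fell in control by 0.21 on the log2 scale (adjusted p = 2.2e-04), with values of −0.04 in MMP2sh1 (95% interval −0.13 to 0.06) and −0.01 in MMP2sh2 (95% interval −0.11 to 0.08).

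FADS1 (chr11:61567099-61596790 on the minus strand) and FADS2 (chr11:61560452-61634826 on the plus strand), the delta-5 and delta-6 desaturases of polyunsaturated fatty acids, are neighbours on opposite strands and overlap. FADS1 in control cells was at 237, 224 and 236 CPM at day −2, at 252, 258 and 270.0 at day 0 and at 199, 199 and 189 at day +2. FADS1 in MMP2sh1 cells was at 199, 212 and 218 CPM at day −2, at 273, 269 and 283 at day 0 and at 231, 237 and 231 at day +2. FADS1 in MMP2sh2 cells was at 211, 207 and 213 CPM at day −2, at 250.4, 248 and 259 at day 0 and at 208, 197 and 217 at day +2. FADS1 was highest at day 0 in every line, and its libraries of day +2 lay below those of day −2 in control, above them in MMP2sh1 and across them in MMP2sh2. Its log2 fold change from day −2 to day +2 was −0.24 (SE 0.05, adjusted p = 6.6e-05) in control, 0.15 (SE 0.06, adjusted p = 0.0362) in MMP2sh1 and −0.02 (SE 0.06, adjusted p = 0.834) in MMP2sh2. The MMP2sh1 call was lost with no filter on low counts and in 5 of the 6 fits with 1 library left out, all but the one without replicate 3 of day −2 (0.11 to 0.17, adjusted p up to 0.141).

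FADS2 in control cells was at 313, 319.8 and 333 CPM at day −2, at 341, 333 and 347 at day 0 and at 249, 248 and 256 at day +2. FADS2 in MMP2sh1 cells was at 305, 342 and 365 CPM at day −2, at 376, 366 and 408 at day 0 and at 332, 334 and 319 at day +2. FADS2 in MMP2sh2 cells was at 310.1, 325 and 344 CPM at day −2, at 334, 339.6 and 322 at day 0 and at 290.3, 291 and 289 at day +2. FADS2 in control without replicate 3 of day −2 was called higher at day 0 than at day −2 (0.11, adjusted p = 0.0489), a step not called with all libraries. The control libraries of day +2 lay below all other control libraries, while those of MMP2sh1 overlapped with day −2. The log2 fold change of FADS2 from day −2 to day +2 was −0.35 (SE 0.05, adjusted p = 2.0e-07) in control, −0.04 (SE 0.06, adjusted p = 0.585) in MMP2sh1 and −0.17 (SE 0.06, adjusted p = 0.0126) in MMP2sh2, where it was −0.03 and no longer called with library totals. The rise in MMP2sh1 before confluence (0.19, adjusted p = 0.0163) was lost without MMP2sh1 replicate 1 of day −2 or replicate 3 of day 0 (0.11 to 0.25, adjusted p up to 0.132). FADS1 shares 5.57% of its exonic bases with FADS2 and MIR1908, and FADS2 shares 5.11% with FADS1 and FEN1. Counting did not use strand, so the 2 genes are uncertain to that extent.

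GPAM (chr10:113909623-113975135 on the minus strand), the mitochondrial acyltransferase that starts glycerolipid synthesis, was not called in any comparison. Over the 27 libraries GPAM lay between 14.4 and 22.2 CPM with a median of 16.9, from 545 to 1281 counts. The 95% interval of its log2 fold change from day −2 to day +2 was −0.42 to 0.03 in control, −0.07 to 0.34 in MMP2sh1 and −0.35 to 0.07 in MMP2sh2. It was called lower in control without replicate 3 of day −2 (−0.27, adjusted p = 0.0450) or replicate 1 of day +2 (−0.31, adjusted p = 0.0331), and higher in MMP2sh1 with library totals (0.24, adjusted p = 0.0484).

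The adipocyte marker list moved with the stage as well. Its summed level was 36.6 to 40.2 CPM in control at day −2 and 11.1 to 13.5 at day +2, 36.2 to 39.0 and 7.51 to 9.54 in MMP2sh1, and 37.4 to 41.6 and 10.6 to 12.6 in MMP2sh2. Nearly all of it was PPARG, a nuclear receptor (7.20 to 41.2 CPM), while ADIPOQ was at 0 in every library and FABP4, LEP and CIDEC did not exceed 0.175 CPM. The hepatocyte list was at 78.1 to 88.1 CPM in control at day −2 and at 301 to 316 at day +2, nearly all of it SERPINA1, while TTR did not exceed 0.0279 CPM. The osteoblast-lineage list was at 1195 to 1368 CPM in control at day −2 and at 1107 to 1253 at day +2, with 2 of its genes called lower and 2 higher. The epithelial, blood and endothelial list, of which 6 of 7 genes were counted, was at 9.52 to 12.2 CPM at day −2 and 5.25 to 6.70 at day +2 in control. EPCAM, VWF, CDH1 and PTPRC averaged at least 1 CPM in at least 1 group. Their highest group means were 6.02, 4.34, 1.67 and 1.18 CPM, while CD3E did not exceed 0.0242 CPM. Mitochondrial genes took 4.16 to 5.30% of the counts in control at day −2 and 5.49 to 6.37% at day +2. The part of these genes and of the mitochondrial share in the results above was not tested.

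The second question was how each shRNA line differed from control at the same stage. At day +2, FASN, SCD and FADS2 were higher in both lines, and ACACA, ACLY and FADS1 were also higher in MMP2sh1 and SREBF1 in MMP2sh2.  In MMP2sh1 6 genes were called higher, where 7.68% of all genes tested were higher and 7.11% lower, and in MMP2sh2 4 were, where 2.89% were higher and 3.43% lower. The median log2 fold change of the 10 genes was 0.20 in MMP2sh1 and 0.09 in MMP2sh2, beside 0.00 and 0.00 over all genes.

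SCD at day +2 was at 191 ± 10.8 CPM in control, 254 ± 5.93 in MMP2sh1 and 252 ± 10.4 in MMP2sh2 (SD, n = 3), a log2 fold change of 0.40 (SE 0.05, adjusted p = 2.4e-06) in MMP2sh1 and 0.40 (SE 0.05, adjusted p = 9.3e-07) in MMP2sh2. The lowest SCD level of either shRNA line, 244 CPM, lay above the highest control level, 199 CPM. FADS2 differed by 0.38 (SE 0.05, adjusted p = 1.6e-06) in MMP2sh1 and 0.21 (SE 0.05, adjusted p = 0.00554) in MMP2sh2. FASN differed by 0.23 (SE 0.05, adjusted p = 0.00119) in MMP2sh1 and 0.22 (SE 0.05, adjusted p = 0.00375) in MMP2sh2. None of these groups overlapped with control, which describes the same values that gave the calls. The share of all genes without overlap was not counted at any day. Leaving out 1 library kept SCD called in both lines, whereas in MMP2sh2 FASN lost its call without MMP2sh2 replicate 1 or 2 (0.19 to 0.27, adjusted p up to 0.0603) and FADS2 without control replicate 2 (0.20 to 0.22, adjusted p up to 0.0583).

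ACACA was higher in MMP2sh1 at day +2 by 0.36 (SE 0.06, adjusted p = 3.3e-05), with 129 to 140 CPM against 101 to 109 in control, and overlapped with control in MMP2sh2, where its value was 0.09 (95% interval −0.03 to 0.21). FADS1 was higher in MMP2sh1 by 0.25 (SE 0.05, adjusted p = 8.5e-04) and had a value of 0.08 in MMP2sh2 (95% interval −0.03 to 0.19). ACLY was higher in MMP2sh1 by 0.18 (SE 0.05, adjusted p = 0.0165), a call lost without control replicate 1 or 3 or MMP2sh1 replicate 2 or 3 (0.16 to 0.20, adjusted p up to 0.0911), and was at 0.05 in MMP2sh2 (95% interval −0.05 to 0.15). SREBF1 was higher in MMP2sh2 by 0.24 (SE 0.05, adjusted p = 0.00298), which lost its call without MMP2sh2 replicate 2 (0.18 to 0.28, adjusted p up to 0.0733), and its value in MMP2sh1 was 0.07 (95% interval −0.03 to 0.18). Without MMP2sh2 replicate 2, 2 of the 10 genes were called in MMP2sh2 instead of 4. The 2 shRNA lines were not tested against each other. At this day the summed hepatocyte list was at 301 to 316 CPM in control, 427 to 448 in MMP2sh1 and 279.5 to 296 in MMP2sh2, nearly all of it SERPINA1. The osteoblast-lineage list was at 1107 to 1253, 1320.5 to 1478 and 1089.6 to 1242 CPM in the same order, with 2 genes called higher in MMP2sh1. The adipocyte list was at 11.1 to 13.5, 7.51 to 9.54 and 10.6 to 12.6 CPM, and the epithelial, blood and endothelial list at 5.25 to 6.70, 6.30 to 7.02 and 5.76 to 8.92 CPM. Mitochondrial genes took 5.49 to 6.37% of the counts in control, 6.53 to 7.15% in MMP2sh1 and 6.10 to 6.41% in MMP2sh2. The part of these genes and of the mitochondrial share in the differences was not tested.

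**Figure D3:**
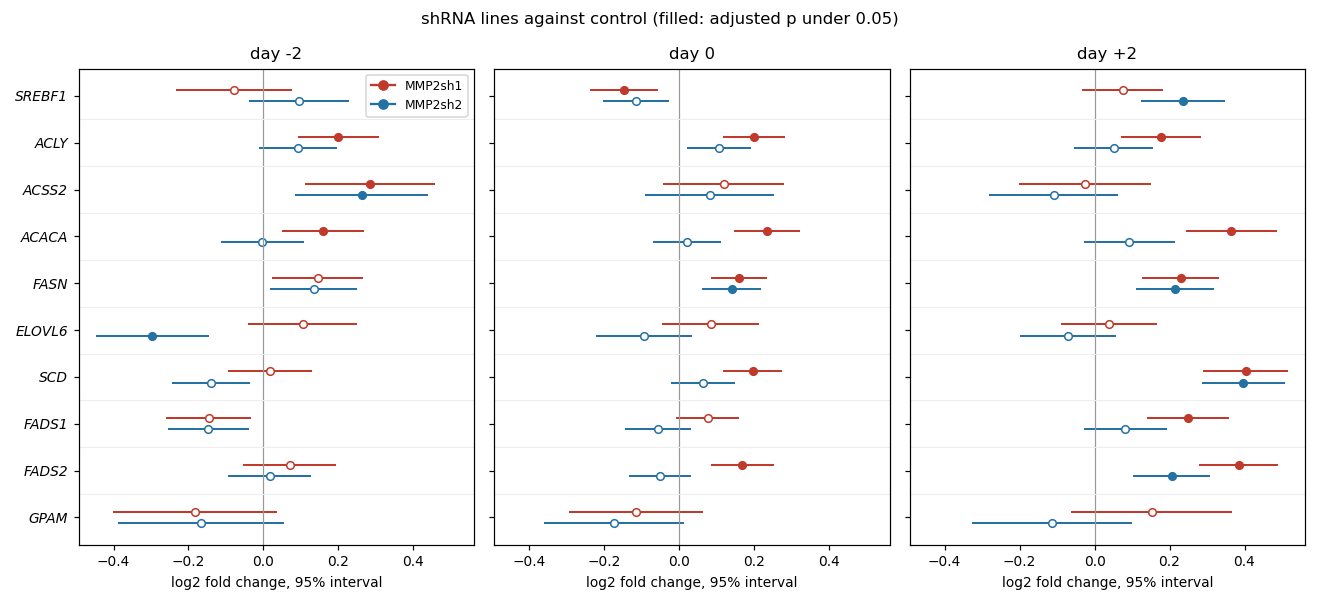
Log2 fold change (x axis) of each gene (y axis) in MMP2sh1 (red) and MMP2sh2 (blue) against control, in 3 panels for day −2, day 0 and day +2. Bars are 95% intervals and filled points have an adjusted p under 0.05. FADS2 lies within 0.1 of 0 in both lines at day −2, and SCD, FADS2 and FASN lie right of 0 in both with a call at day +2.

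At confluence most calls were in MMP2sh1. In MMP2sh2 1 of the 10 genes was called higher, near the 7.07% of all genes called higher. In MMP2sh1, ACACA, ACLY, SCD, FADS2 and FASN were higher and SREBF1 was lower (5 higher and 1 lower, against 8.26% and 8.58% of all genes). ACACA differed by 0.23 (SE 0.04, adjusted p = 1.1e-04), ACLY by 0.20 (SE 0.04, adjusted p = 3.2e-04) and SCD by 0.20 (SE 0.04, adjusted p = 2.5e-04). FADS2 differed by 0.17 (SE 0.04, adjusted p = 0.00261) and FASN by 0.16 (SE 0.04, adjusted p = 0.00120). These 5 kept their calls with any 1 library left out. None overlapped with control, which describes the same values that gave the calls. SREBF1 had a log2 fold change of −0.15 (SE 0.04, adjusted p = 0.0145), a call lost with all 27 libraries in 1 fit and without control replicate 1 or MMP2sh1 replicate 1 or 2 (−0.19 to −0.11, adjusted p up to 0.175).

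In MMP2sh2 at day 0 FASN was the 1 gene called (1 higher and 0 lower, against 7.07% and 5.81% of all genes). It differed by 0.14 (SE 0.04, adjusted p = 0.00894), and the call was lost with all 27 libraries in 1 fit, with library totals and without MMP2sh2 replicate 2 (0.10 to 0.16, adjusted p up to 0.0858). Without control replicate 3, 2 genes were called, FASN and ACLY, and with library totals 1 gene was called lower, SREBF1, and 0 higher. The medians of the 10 genes at day 0 were 0.14 in MMP2sh1 and −0.01 in MMP2sh2, beside 0.00 and 0.00 over all genes.

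In subconfluent cells ACSS2, ACLY, ACACA and ELOVL6 were called, and each of these calls was lost in at least 1 fit with a library left out. ACSS2 was higher in both lines, by 0.28 (SE 0.08, adjusted p = 0.0246) in MMP2sh1 and 0.26 (SE 0.09, adjusted p = 0.0461) in MMP2sh2. ACLY was higher in MMP2sh1 by 0.20 (SE 0.05, adjusted p = 0.0105) and ACACA by 0.16 (SE 0.05, adjusted p = 0.0471). ELOVL6 was lower in MMP2sh2, at −0.30 (SE 0.07, adjusted p = 0.00877), with 32.1 to 34.2 CPM against 38.6 to 42.7 in control. This gave 3 higher and 0 lower in MMP2sh1 (5.42% and 6.14% of all genes) and 1 higher and 1 lower in MMP2sh2 (4.71% and 6.33%), with medians of 0.09 and 0.01 beside 0.00 over all genes in both.

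ACSS2 lost its call in 5 of the 6 fits with 1 library left out in either line, all but the one without replicate 1 of the shRNA line (0.26 to 0.30, adjusted p up to 0.112 in MMP2sh1, and 0.19 to 0.30, adjusted p up to 0.191 in MMP2sh2). ACACA in MMP2sh1 was lost in the corresponding 5 fits (0.15 to 0.17, adjusted p up to 0.197), and ACLY was lost without control replicate 2 (0.17 to 0.22, adjusted p up to 0.0820), so that 0 genes were called in MMP2sh1 without that library and 1 without control replicate 1 or MMP2sh1 replicate 2 or 3. ELOVL6 was lost without control replicate 1 or 3 (−0.33 to −0.26, adjusted p up to 0.0587), and in MMP2sh2 0 genes were called without control replicate 1 and 1 without control replicate 2 or 3 or MMP2sh2 replicate 2. With library totals, ACACA in MMP2sh1 and ACSS2 in MMP2sh2 were not called, FADS1 was called lower in both lines and SCD in MMP2sh2, which gave 2 higher and 1 lower in MMP2sh1 and 0 higher and 3 lower in MMP2sh2. DESeq2 and the fit of all 27 libraries also called FADS1 lower in both lines and SCD lower in MMP2sh2. With DESeq2, FADS1 was at −0.14 in MMP2sh1 (adjusted p = 0.0335) and −0.14 in MMP2sh2 (adjusted p = 0.0147). SCD in MMP2sh2 was at −0.13 with DESeq2 (adjusted p = 0.0143). In the main fit, SCD and FADS2 at this day were at 0.02 and 0.07 in MMP2sh1 (95% intervals −0.09 to 0.13 and −0.05 to 0.19) and at −0.14 and 0.02 in MMP2sh2 (95% intervals −0.24 to −0.04 and −0.09 to 0.12). FASN, at 0.14 and 0.13 in the 2 lines, was called higher in both without control replicate 3 (0.19, adjusted p = 0.0492 and 0.19, adjusted p = 0.0467) and in MMP2sh1 without MMP2sh1 replicate 1 (0.20, adjusted p = 0.00813), and FADS1 was called lower in MMP2sh2 without MMP2sh2 replicate 3 (−0.15, adjusted p = 0.0431).

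Whether the change over the expansion itself differed from control was tested with the term for line and day in 12 libraries. The difference of the log2 fold changes from day −2 to day +2 was called for SCD, FADS1 and FADS2 in MMP2sh1 (3 of 10 genes, where 7.40% of all genes were called in either direction) and for SCD in MMP2sh2 (1 of 10, where 4.98% were). All were above 0. SCD fell in all 3 lines, and by less in both shRNA lines. Each such difference combines the distance from control at day −2 with that at day +2. At day −2, SCD in MMP2sh2 and FADS1 in MMP2sh1 were at −0.13 and −0.14 against control with DESeq2. DESeq2 called both lower and the main fit called neither. FADS1 and FADS2 fell in control, and in MMP2sh1 the change of FADS2 was not called and that of FADS1, 0.15, lost its call in 5 of 6 fits with 1 library left out, with no filter on low counts and with the replicate block. For SCD the difference was 0.39 (SE 0.07, adjusted p = 0.00111) in MMP2sh1 and 0.53 (SE 0.07, adjusted p = 7.0e-06) in MMP2sh2. FADS1 differed by 0.40 (SE 0.07, adjusted p = 5.3e-04) and FADS2 by 0.32 (SE 0.08, adjusted p = 0.0105) in MMP2sh1. All 4 kept their calls with any 1 of the 12 libraries left out and under every alternative. In MMP2sh2 the differences of FADS1 and FADS2 were 0.23 (95% interval 0.08 to 0.37, adjusted p = 0.0611) and 0.19 (95% interval 0.04 to 0.33, adjusted p = 0.129), and FADS1 was called with DESeq2, with all 27 libraries in 1 fit and with library totals, FADS2 with library totals. Without control replicate 1 or MMP2sh2 replicate 2 of day +2, or MMP2sh2 replicate 3 of day −2, 2 genes instead of 1 were called in MMP2sh2.

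For the genes of supply and chain synthesis, and for ELOVL6, SREBF1 and GPAM, no difference of the expansion change was called. A difference that was not called is not shown to be absent. FASN was at 0.09 (95% interval −0.07 to 0.25) in MMP2sh1 and 0.08 (−0.08 to 0.23) in MMP2sh2. ACLY was at −0.02 (−0.16 to 0.12) and −0.05 (−0.18 to 0.09), and ACACA at 0.21 (0.06 to 0.36, adjusted p = 0.0888) and 0.09 (−0.07 to 0.25). ACSS2 was at −0.31 (−0.54 to −0.07, adjusted p = 0.114) and −0.38 (−0.61 to −0.14, adjusted p = 0.0543), ELOVL6 at −0.06 and 0.22, SREBF1 at 0.16 and 0.14 and GPAM at 0.34 and 0.05. The GPAM libraries of control were spread, at 18.9 ± 2.90 CPM at day −2 and 16.6 ± 2.32 at day +2 (SD, n = 3). ACACA was called in MMP2sh1 without control replicate 1 of day +2 (0.25, adjusted p = 0.0436), with DESeq2 and with all 27 libraries in 1 fit. ACSS2 was called in MMP2sh1 without MMP2sh1 replicate 1 of day +2 (−0.38, adjusted p = 0.0458), and in MMP2sh2 with DESeq2, with all 27 libraries in 1 fit and with median-of-ratios scaling. The medians of the 10 genes were 0.18 and 0.11, beside 0.01 and 0.00 over all genes.

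**Figure D4:**
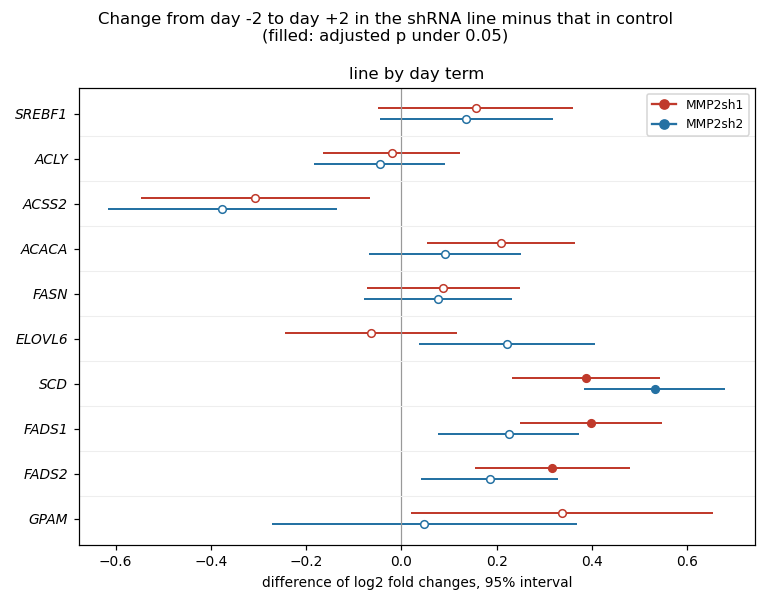
Difference between the log2 fold change from day −2 to day +2 in an shRNA line and that in control (x axis) for each gene (y axis), for MMP2sh1 (red) and MMP2sh2 (blue). Bars are 95% intervals and filled points have an adjusted p under 0.05. SCD stands right of 0 in both lines, and FADS1 and FADS2 do so with a call in MMP2sh1.

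The rest of the pathway was followed in 5 further lists of genes. Of all genes, 19.1% were called down and 16.4% up at the step to confluence in control and 20.1% and 21.3% at the step after it. In MMP2sh1 these were 17.7% and 15.0%, and 23.0% and 23.1%, and in MMP2sh2 16.4% and 13.9%, and 23.0% and 22.5%. Against control, 6.14% and 5.42%, 8.58% and 8.26%, and 7.11% and 7.68% of all genes were called at the 3 days in MMP2sh1, and 6.33% and 4.71%, 5.81% and 7.07%, and 3.43% and 2.89% in MMP2sh2. The terms for line and day were called for 7.40% and 4.98%. On lists of this size a share of 1 gene is several percent, and no list was tested as a whole. Over the expansion (day +2 against day −2), of 12 tested regulators of SREBP and related factors, 2 down and 3 up were called in control, 5 down and 4 up in MMP2sh1 and 4 down and 5 up in MMP2sh2, with medians of 0.00, −0.06 and −0.02. As shares of the list, down and up, this was 16.7% and 25.0%, 41.7% and 33.3% and 33.3% and 41.7%, where 28.6% and 28.1%, 27.7% and 27.3%, and 27.1% and 27.7% of all genes were called. In the same line order, the step to confluence had 6 down and 2 up, 5 down and 2 up and 4 down and 1 up, and the step after it 2 down and 7 up, 1 down and 5 up and 2 down and 4 up. Against control, MMP2sh1 had 2 down and 1 up at day −2, 2 down and 1 up at day 0 and 3 down and 2 up at day +2, and MMP2sh2 had 2 down and 1 up, 0 down and 1 up and 2 down and 2 up at these days. The term for line and day was called for 2 down and 3 up in MMP2sh1 and 0 down and 2 up in MMP2sh2. INSIG1, which retains SREBP in the endoplasmic reticulum and is itself a known SREBP target, fell in control over the expansion, at −1.14 (SE 0.07, adjusted p = 3.9e-13), and was higher in MMP2sh1 than in control at day +2 by 0.60 (SE 0.08, adjusted p = 1.3e-06). INSIG1 in control was at 51.3 ± 4.79 CPM at day −2 and 23.1 ± 0.893 at day +2, and in MMP2sh1 at 35.1 ± 1.54 at day +2. INSIG2, its paralog, rose in control by 0.97 (SE 0.09, adjusted p = 8.8e-10), from 15.4 ± 0.837 to 29.9 ± 3.91 CPM. NR1H3, the liver X receptor alpha, was lower in MMP2sh1 at day +2, at −0.29 (SE 0.10, adjusted p = 0.0395).

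The list of other enzymes and carriers of chain synthesis and acetyl-CoA supply holds the steps around the 10 genes. Over the expansion (day +2 against day −2), of 10 tested genes of this list, 8 down and 1 up were called in control, 8 down and 1 up in MMP2sh1 and 8 down and 1 up in MMP2sh2, with medians of −0.38, −0.57 and −0.37. As shares of the list, down and up, this was 80.0% and 10.0%, 80.0% and 10.0% and 80.0% and 10.0%, where 28.6% and 28.1%, 27.7% and 27.3%, and 27.1% and 27.7% of all genes were called. In the same line order, the step to confluence had 4 down and 1 up, 4 down and 1 up and 3 down and 0 up, and the step after it 5 down and 1 up, 7 down and 1 up and 6 down and 1 up. Against control, MMP2sh1 had 1 down and 2 up at day −2, 1 down and 2 up at day 0 and 1 down and 0 up at day +2, and MMP2sh2 had 2 down and 2 up, 0 down and 0 up and 0 down and 0 up at these days. The term for line and day was called for 1 down and 0 up in MMP2sh1 and 0 down and 1 up in MMP2sh2. Where 0 were called by edgeR, the number with an unadjusted p under 0.05 was 3 for MMP2sh2 at day 0 and 0 for MMP2sh2 at day +2, and no other tool was run on these lists. ME1, the malic enzyme that supplies NADPH, fell in control, at −1.26 (SE 0.08, adjusted p = 7.3e-14), from 43.3 ± 2.52 to 18.0 ± 1.03 CPM. ACSS3, an acyl-CoA synthetase for short chains, was the 1 gene of the list that rose, by 1.43 (SE 0.10, adjusted p = 1.2e-12), from 9.08 ± 0.731 to 24.5 ± 1.81 CPM.

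A further list held the other elongases, desaturases and long-chain acyl-CoA synthetases. Over the expansion (day +2 against day −2), of 15 tested genes of this list, 9 down and 3 up were called in control, 7 down and 4 up in MMP2sh1 and 6 down and 3 up in MMP2sh2, with medians of −0.30, −0.20 and 0.02. As shares of the list, down and up, this was 60.0% and 20.0%, 46.7% and 26.7% and 40.0% and 20.0%, where 28.6% and 28.1%, 27.7% and 27.3%, and 27.1% and 27.7% of all genes were called. In the same line order, the step to confluence had 6 down and 1 up, 6 down and 2 up and 3 down and 1 up, and the step after it 6 down and 3 up, 5 down and 3 up and 5 down and 4 up. Against control, MMP2sh1 had 0 down and 4 up at day −2, 0 down and 5 up at day 0 and 0 down and 5 up at day +2, and MMP2sh2 had 4 down and 0 up, 2 down and 1 up and 0 down and 3 up at these days. The term for line and day was called for 0 down and 1 up in MMP2sh1 and 0 down and 2 up in MMP2sh2. FADS3, a relative of FADS1 and FADS2, fell in control, at −1.14 (SE 0.06, adjusted p = 2.6e-15), from 98.2 ± 2.703 to 44.4 ± 2.79 CPM. ELOVL1, an elongase of very long chains, fell as well, at −0.94 (SE 0.06, adjusted p = 5.9e-14), from 118 ± 5.87 to 61.3 ± 2.94 CPM, against the rise of ELOVL6. ACSL4 and ACSL3, which activate long-chain fatty acids, were higher in MMP2sh1 than in control at day +2 by 0.26 (SE 0.07, adjusted p = 0.0175) and 0.25 (SE 0.05, adjusted p = 0.00136).

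Genes of glycerolipid synthesis and lipid droplets follow fatty acid synthesis in the pathway. Over the expansion (day +2 against day −2), of 14 to 15 tested genes of this list, 8 down and 4 up were called in control, 7 down and 2 up in MMP2sh1 and 9 down and 2 up in MMP2sh2, with medians of −0.14, −0.19 and −0.20. As shares of the list, down and up, this was 53.3% and 26.7%, 50% and 14.3% and 64.3% and 14.3%, where 28.6% and 28.1%, 27.7% and 27.3%, and 27.1% and 27.7% of all genes were called. In the same line order, the step to confluence had 5 down and 2 up, 5 down and 1 up and 3 down and 1 up, and the step after it 1 down and 3 up, 5 down and 3 up and 5 down and 2 up. Against control, MMP2sh1 had 0 down and 3 up at day −2, 1 down and 3 up at day 0 and 2 down and 2 up at day +2, and MMP2sh2 had 1 down and 5 up, 1 down and 3 up and 1 down and 0 up at these days. The term for line and day was called for 2 down and 1 up in MMP2sh1 and 3 down and 1 up in MMP2sh2. PLIN2, a coat protein of lipid droplets, rose in control by 1.14 (SE 0.07, adjusted p = 7.4e-14), from 29.4 ± 1.25 to 64.8 ± 5.45 CPM, and AGPAT4, an acyltransferase, by 0.70 (SE 0.08, adjusted p = 5.6e-08). LPIN2 and LPIN3, phosphatidate phosphatases, were lower and higher in MMP2sh1 at day +2, at −0.49 (SE 0.06, adjusted p = 6.7e-07) and 0.38 (SE 0.12, adjusted p = 0.0322).

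Genes of lipolysis and fatty acid oxidation belong to the opposing pathway. Over the expansion (day +2 against day −2), of 22 tested genes of this list, 5 down and 11 up were called in control, 5 down and 7 up in MMP2sh1 and 4 down and 7 up in MMP2sh2, with medians of 0.17, 0.16 and 0.08. As shares of the list, down and up, this was 22.7% and 50%, 22.7% and 31.8% and 18.2% and 31.8%, where 28.6% and 28.1%, 27.7% and 27.3%, and 27.1% and 27.7% of all genes were called. In the same line order, the step to confluence had 3 down and 7 up, 3 down and 3 up and 3 down and 2 up, and the step after it 3 down and 10 up, 4 down and 9 up and 3 down and 8 up. Against control, MMP2sh1 had 0 down and 2 up at day −2, 2 down and 2 up at day 0 and 4 down and 3 up at day +2, and MMP2sh2 had 1 down and 2 up, 1 down and 2 up and 2 down and 0 up at these days. The term for line and day was called for 0 down and 0 up in MMP2sh1 and 1 down and 0 up in MMP2sh2. Where 0 were called by edgeR, the number with an unadjusted p under 0.05 was 8 for the term in MMP2sh1, and no other tool was run on these lists. PDK4, a kinase that restrains pyruvate oxidation, had the largest change of these 5 lists in control, 3.25 (SE 0.20, adjusted p = 2.3e-13), from 1.03 ± 0.231 to 9.53 ± 1.89 CPM, and was lower in MMP2sh1 at day +2, at −0.62 (SE 0.15, adjusted p = 0.00455). SLC25A20, the carnitine carrier of mitochondria, rose in control by 1.22 (SE 0.20, adjusted p = 1.0e-05), from 2.46 ± 0.781 to 5.77 ± 0.348 CPM. CPT1A, the carnitine palmitoyltransferase that admits fatty acids to oxidation, was higher in MMP2sh1 at day +2 by 1.29 (SE 0.28, adjusted p = 0.00137), at 2.53 ± 0.225 CPM against 1.03 ± 0.0393 in control.

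**Figure D5:**
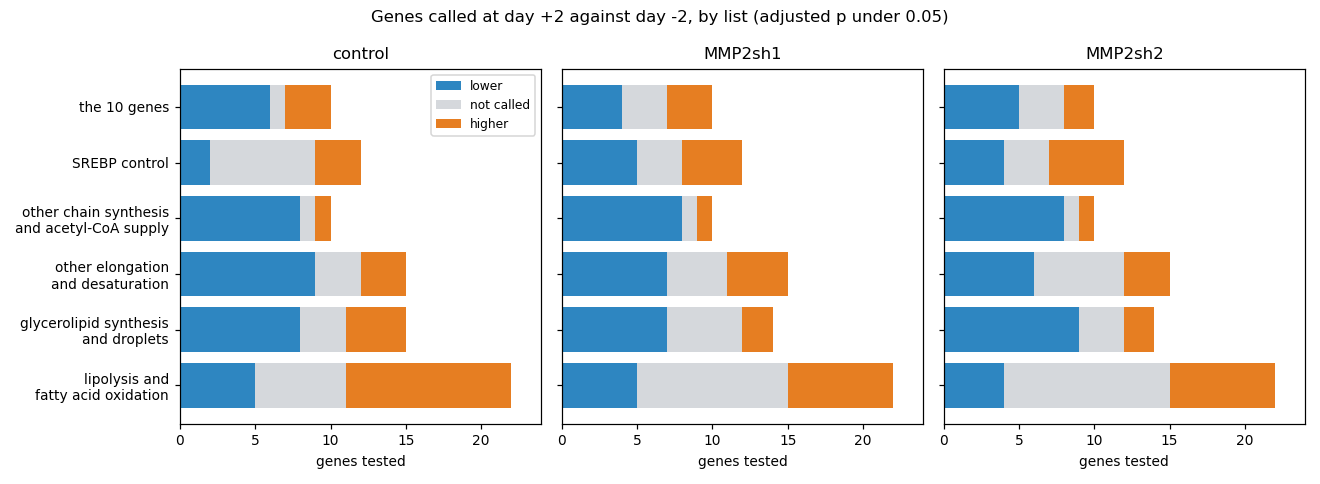
Number of genes tested (x axis) in the 10 genes and in 5 further lists (y axis), called lower (blue), not called (grey) or called higher (orange) at day +2 against day −2, in 3 panels for control, MMP2sh1 and MMP2sh2. The synthesis list has 8 genes lower and 1 higher in each line, and the list of lipolysis and oxidation has 11 of 22 genes higher in control and 7 of 22 in each shRNA line.

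The patterns of the genes were compared over the 9 group means of log2 CPM, as a description without a test, since the means come from the same 27 libraries and scaling. Among themselves, ACLY and FASN were most alike (Pearson r = 0.991), followed by FASN and SCD (0.973), ACLY and SCD (0.956) and ACACA and SCD (0.953). ELOVL6 ran against FASN (−0.859) and with SREBF1 (0.717), and SREBF1 ran against FASN (−0.669). FADS1 and FADS2 had an r of 0.789. Among the 10194 genes with a mean of at least 10 CPM, those most like ACLY were GOT2, PABPC4 and EARS2 (r = 0.998, 0.996 and 0.996), and those most like FASN were MARC1, RAB11FIP1 and CAD (r = 0.997, 0.997 and 0.997). The nearest to SCD were MAP1B, STON2 and IPO11 (r = 0.992, 0.991 and 0.989), the nearest to ACACA COPS4, ABCB10 and NUP205 (r = 0.984, 0.984 and 0.983), and the nearest to ELOVL6 VPS45, SMARCA1 and OFD1 (r = 0.989, 0.985 and 0.984). SREBF1 was followed most closely by ZNF587, APBB3 and TUBGCP6 (r = 0.977, 0.971 and 0.969), FADS1 by MTX3, RTKN2 and AP4E1 (r = 0.963, 0.962 and 0.962) and FADS2 by GCNT1, NCK1 and MBNL1 (r = 0.946, 0.941 and 0.939). For ACSS2 and GPAM, which varied least between groups, they were ABHD14B, LCMT1 and NKIRAS2 (r = 0.940, 0.933 and 0.931) and ACER3, BAG5 and FEM1B (r = 0.937, 0.885 and 0.883).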

How the data were processed

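Raw read counts per gene symbol, as deposited by the authors (1 table per library), were analysed. Per the methods and the submitters' processing notes, reads were trimmed with Trim Galore 0.6.0, aligned to hg19 with STAR 2.7.3a, and counted without strand, over exons and in union mode, with HTSeq 2.0.0. The 5 HTSeq summary lines (16.8 to 19.1% of the reads in the tables) were left out. Genes of each comparison were filtered with filterByExpr (minimum count 10, minimum total 15), scaled with TMM and tested with edgeR 4.0.16 (R 4.3.3, quasi-likelihood test, Benjamini-Hochberg adjustment) on the 6 libraries compared, or 12 for the term for line and day. The p-values set each difference against the spread between these libraries. Each shRNA was represented by 1 line. An effect of the shRNA therefore cannot be told apart from another difference between that line and control. Standard errors were taken as the log2 fold change divided by the square root of F. Alternatives were DESeq2 1.42.0, 1 fit of all 27 libraries, other scalings, no filter, a replicate block and leaving out each library. The test was checked on simulated counts with 200 genes changed by a fold of 2. In MMP2sh1 against control at day +2, 142 of the 200 and 12 unchanged genes were called. For the term for line and day in MMP2sh1, 124 of the 200 and 17 unchanged genes were called. A fold of 2 is larger than any difference from control called among the 10 genes. The check therefore does not show how often differences of their size are called.

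The members and lists were chosen with earlier results of these data known. All members were named. From each further list, the pair of called genes with the largest log2 fold change was named in control (day +2 against day −2) and in MMP2sh1 against control (day +2), and for each member the 3 genes most correlated with it. A result for 1 gene that this rule names is not reported here. Gene positions came from GENCODE 44 mapped to GRCh37, and promoters from RefSeq (GRCh38.p14).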

Additional observations from a re-analysis of the deposited data

Results flagged for a closer look

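In 4 cases the change from day −2 to day +2 in an shRNA line differed from that in control by the test of the difference itself (edgeR's quasi-likelihood test, Benjamini-Hochberg adjustment over all genes, 3 libraries per group). For SCD in MMP2sh1 the difference of log2 fold changes was 0.39, since SCD changed by −0.88 in MMP2sh1 and by −1.26 in control. For SCD in MMP2sh2 it was 0.53, with a change of −0.73 in MMP2sh2. For FADS1 in MMP2sh1 it was 0.40, with 0.15 in MMP2sh1 and −0.24 in control. For FADS2 in MMP2sh1 it was 0.32, with −0.04 in MMP2sh1 and −0.35 in control. Each difference combines the distance from control at day −2 with that at day +2. Both lines were set against the same control libraries, and no explanation of these differences was tested.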

How the results depend on the processing

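Of the 91 calls among the 10 genes, 9 were lost under at least 1 alternative and 18 with at least 1 library left out, and none of the 91 changed sign. Over all alternatives 529 of 546 values kept the call, and 516 of 570 did so with 1 library left out. Of the 79 tests not called, alternatives changed the sign in 14 of 474 values, where the log2 fold change was at most 0.04 in size, and added a call in 26. Leaving out a library changed the sign in 26 of 570 values, of at most 0.11 in size, and added a call in 16. Group levels moved by over 1 SD under another scaling in 37 of 180 cases.

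Counts of genes called changed by more than 1.5 times in these comparisons. For MMP2sh2 against control at day −2 (2 genes), DESeq2 and the fit of all 27 libraries called 4, no filter called 1, and leaving out 1 library gave 0 to 2. At day 0 (1 gene), DESeq2 called 3, the fit of all 27 libraries 0, and leaving out 1 library gave 0 to 2. At day +2 (4 genes), leaving out 1 library gave 2 to 4. For MMP2sh1 at day −2 (3 genes) it gave 0 to 4. For the term for line and day in MMP2sh2 (1 gene), DESeq2, the fit of all 27 libraries and library totals called 3, median-of-ratios scaling called 2, and leaving out 1 library gave 1 to 2. The cause was not tested.

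Replicate numbers were shared between groups. The correlations of the deviations of same-numbered libraries lay between −0.049 and 0.050 over 45 pairs. These values gave no sign of pairing but cannot exclude it for single genes. At day −2 the levels of FASN, FADS2 and MMP2 rose with the replicate number in every line, and those of the other members did not. The main fits did not use the replicate number. With the number as a replicate block, ACLY in MMP2sh1 against control at day +2, SREBF1 in control at day +2 against day 0 and FADS1 in MMP2sh1 at day +2 against day −2 were no longer called, and the count in MMP2sh1 at day +2 was 5 instead of 6.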
